A study of Parasteatoda tepidariorum with 75 samples.

Results

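The knockdown of Pt-hh in embryos of the spider Parasteatoda tepidariorum at late stage 5 was described from 6 of the 68 libraries of the series that have a column in the count table. These are the libraries labelled Pt-hh and stage 5: 2 untreated egg sacs and 4 egg sacs laid after parental RNAi (pRNAi), from 2 females. In pRNAi a mated female is injected with double-stranded RNA of the target gene, here 4 times at 2 µg/µl, and the RNA acts in the eggs that the female lays afterwards. Female 1 gave an untreated egg sac, labelled day -2 relative to the first injection, and pRNAi egg sacs of days 16 and 20. Female 2 gave an untreated egg sac of day -2 and pRNAi egg sacs of days 18 and 22. No strain, mutation or other agent separates the groups. Each library is poly(A) RNA from a pool of 50 to 120 sibling embryos of a single egg sac, so that the 4 pRNAi libraries hold the offspring of only 2 females, and the p-values measure the spread between egg sacs of these females. Untreated eggs were always laid first, so knockdown, injection and the age of the female cannot be told apart inside this comparison, and the libraries of females injected with gfp dsRNA, a sequence foreign to the spider, are given beside it.

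Hedgehog is a secreted signalling protein. Its receptor Patched holds back the membrane protein Smoothened, and when Hedgehog binds Patched, Smoothened is released and converts the transcription factor Cubitus interruptus (Ci in flies, Gli in vertebrates) into an activator of target genes, of which patched itself is the best known. At late stage 5 the spider embryo is a germ disc, a single-layered sheet whose rim becomes the head end and whose centre becomes the tail end. Pt-hh is transcribed in the cells of the rim, and the cumulus, a cluster of cells that signals through a BMP ligand, migrates from the centre of the disc toward the rim at this stage.

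The 6 libraries held 6188457 to 8992510 reads counted on gene models, and the 10 most counted models took 15.17% to 23.99% of them. Levels are given as read counts relative to the library total (CPM), scaled between libraries by TMM factors, in the order of female 1 and female 2 for untreated eggs, and of day 16, day 20 (female 1), day 18 and day 22 (female 2) for pRNAi eggs. A fold change is the log2 ratio of pRNAi over untreated eggs, with the female as a block. A model is said to have risen or fallen at an adjusted p under 0.01 in edgeR's quasi-likelihood F test (Benjamini-Hochberg over all models tested). Gene models are written as in the aug3 set, on the assembly Ptep_1.0, and descriptions ("-like") are those of the deposited annotation. These are whole embryos, so fewer cells of a type and less RNA per cell cannot be told apart.

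The gene that was targeted was low in every pRNAi library. Pt-hh (aug3.g4322, LOC107451809, scaffold 547, bases 237576 to 301138) was at 64.3 and 30.8 CPM in the untreated eggs and at 2.11, 3.003, 3.07 and 2.91 CPM in the pRNAi eggs. No pRNAi value was above 3.07 CPM and no untreated value below 30.8 CPM. The log2 fold change was -4.004 ± 0.24 (SE), with an adjusted p of 1.29e-06.

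Of 12240 gene models that reached 1 CPM in 1 library or more, 435 (3.55%) passed the test, 287 higher (2.34%) and 148 lower (1.21%). The median log2 fold change of all models was 0.004. Models that fell had a median untreated level of 42.1 CPM, and those that rose 17.8 CPM. For the mean level over all libraries the order was reversed, with medians of 24.2 and 34.6 CPM. The models were called from these same levels, so both orders are partly built in. The median changes were 2.37-fold down and 2.53-fold up. Changes of at least 4-fold were found for 29 of the models that fell (19.6%) and for 74 of those that rose (25.8%). All 148 that fell and 282 of the 287 that rose moved the same way in both females. The models were called from a fit over both females, so this agreement is largely set by the choice. Untreated and pRNAi libraries did not overlap for 143 of the models that fell and 257 of those that rose (96.6% and 89.5%, where over all models tested every pRNAi library was below both untreated ones for 8.29% and above for 10.6%).

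**Figure D1:**
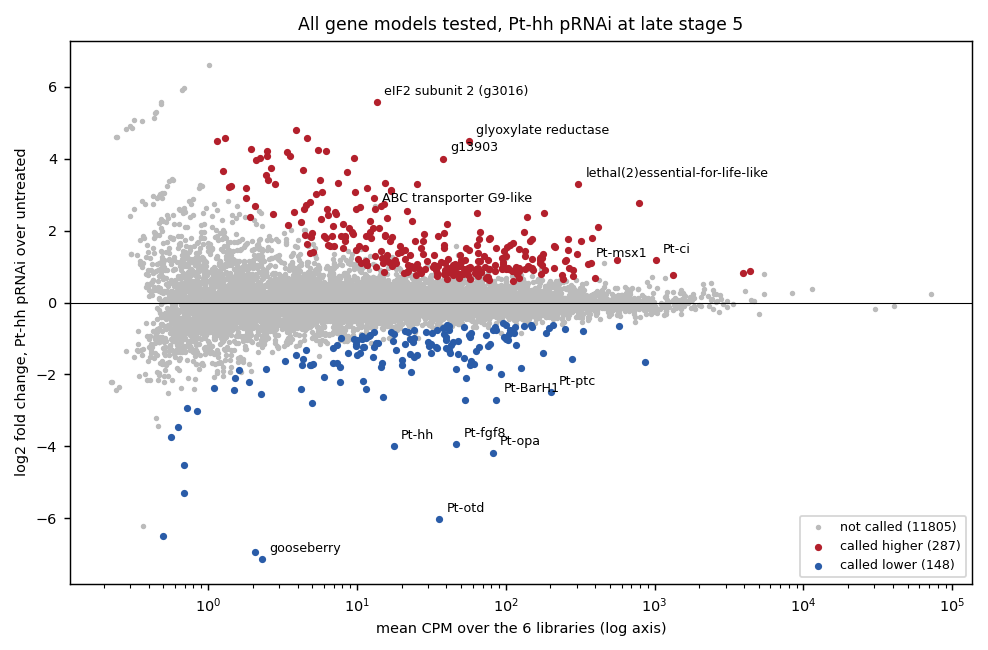
Mean level (CPM, log axis) against log2 fold change of pRNAi over untreated eggs for all 12240 gene models tested, with the 287 that rose and the 148 that fell coloured. Pt-hh, Pt-otd, Pt-opa and Pt-fgf8 lie far below 0, and Pt-ci and Pt-msx1 are among those above it.

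The functions of the models that fell and rose differed. Lists of genes were drawn up by words in the deposited descriptions. The 11 lists of signalling pathways and transcription factors held 300 of the models tested (2.45%). Of the 148 models that fell, 47 (31.8%) were in these lists, and of the 287 that rose, 14 (4.88%). Put the other way, 15.7% of the models in these lists fell, where 1.21% of all models did, and 4.67% rose, where 2.34% of all did. These are counts of models, and some genes are split over more than 1 model. The 136 models that fell and carry an identifier held 128 different ones, and the 271 that rose held 262. The number of models that passed depended on the libraries: 755 passed without female 1, 383 without female 2, 290 without the egg sac of day 20, and 121 when the pRNAi libraries of each female were summed.

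**Figure D2:**
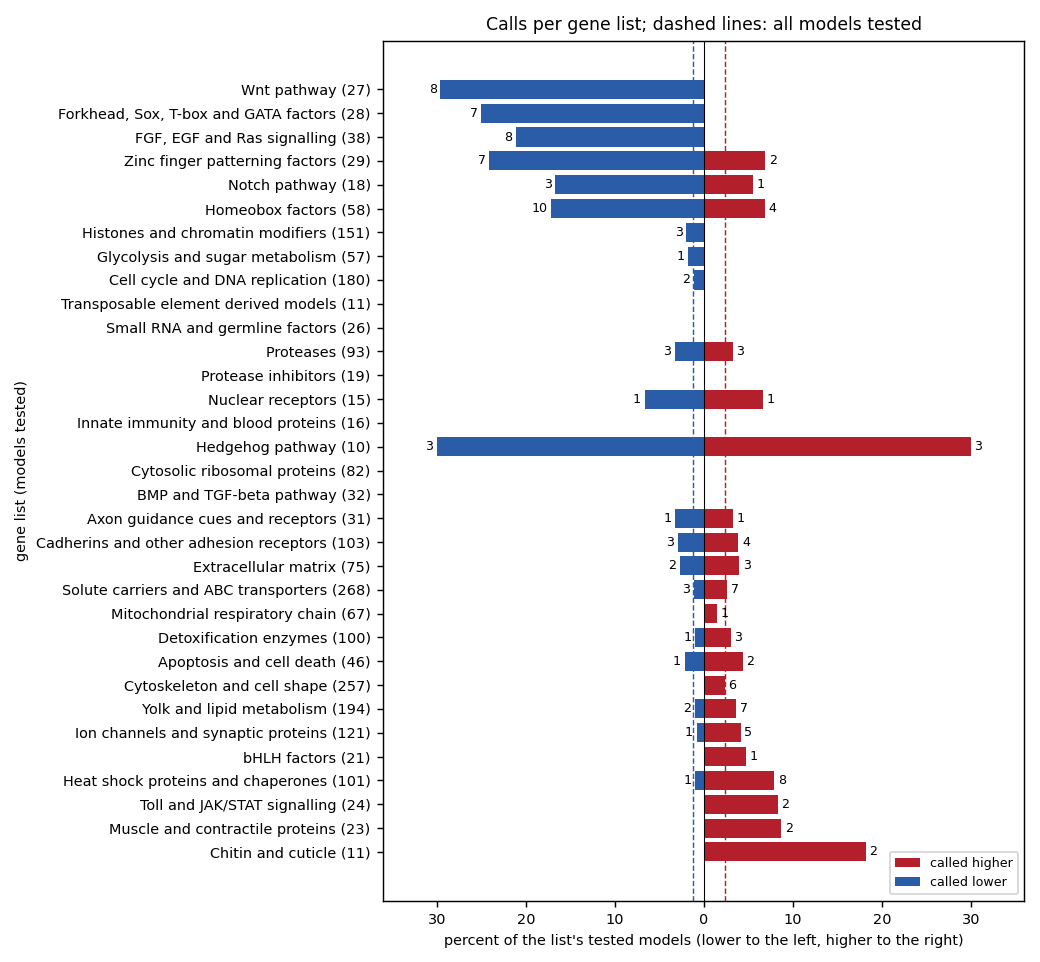
Percentage of the models tested in each list that rose (right) and fell (left) in Pt-hh pRNAi eggs, with the background over all 12240 models (2.34% and 1.21%) as dashed lines. The Hedgehog, Wnt, FGF and Ras, forkhead/Sox/T-box/GATA and zinc finger lists reach far past the line on the side of models that fell, and the Hedgehog and the chitin and cuticle lists, of 10 and 11 models, reach furthest on the other side. The Hedgehog bars stand for 3 models each way. The target Pt-hh is among those that fell, and both sides hold models that share an identifier.

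Within the Hedgehog pathway list, 3 of 10 models tested rose and 3 fell. The receptor gene Pt-ptc (aug3.g14374, LOC107440240, scaffold 1861, bases 26148 to 92754) was at 448 and 444 CPM in untreated eggs and at 63.97, 71.6, 92.9 and 91.5 CPM in pRNAi eggs, a log2 fold change of -2.50 ± 0.13 (adjusted p 1.86e-07). The pRNAi libraries of both females were close to each other and well below the untreated ones. A second model described as patched-like (aug3.g24717, scaffold 28633, bases 1 to 1239) carries the same identifier as Pt-ptc. It was at 3.599 and 4.24 CPM without and 0.395, 0.883, 1.41 and 0.754 CPM with pRNAi (log2 fold change -2.20, adjusted p 0.00414), so that both models with this identifier fell.

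Pt-ci (aug3.g13321, scaffold 1628, bases 46406 to 122044), which encodes the transcription factor of the pathway, moved up instead of down. Its level was 612 and 502 CPM in untreated and 1285, 1268, 1318 and 1128 CPM in pRNAi eggs (log2 fold change 1.17 ± 0.14, adjusted p 0.000214). A model described as shifted-like rose more. In flies, Shifted is a secreted protein that helps Hedgehog to spread through tissue. This model (aug3.g27568, scaffold 223, bases 86936 to 133880) went from 15.3 and 9.22 to 66.1, 53.7, 52.8 and 46.8 CPM (log2 fold change 2.19 ± 0.17, adjusted p 1.27e-05), without overlap between the groups. A further shifted-like model, aug3.g24611, which the study assigned to the same gene, went from 2.55 and 1.09 to 9.61, 7.77, 4.73 and 3.77 CPM (log2 fold change 1.84, adjusted p 0.00211).

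The other 4 members of the list did not pass the test. Pt-smo, the gene of Smoothened, was at 149.5 and 154 CPM without and 133, 128, 139.7 and 130.3 CPM with pRNAi (log2 fold change -0.19, adjusted p 0.396). Pt-gas1 encodes a relative of a vertebrate co-receptor of Hedgehog, and its levels were 60.6 and 85.8 against 80.95, 92.8, 159.5 and 120.4 CPM (log2 fold change 0.61, adjusted p 0.0211). The model for Dispatched, which releases Hedgehog from the cells that make it, had a log2 fold change of -0.015 (adjusted p 0.984). For suppressor of fused, a restraint on Gli proteins, the value was 0.085 (adjusted p 0.811). Per kilobase of gene model, in the deposited RPKM values, Pt-hh in untreated eggs was at 23.89 and 13.01, and in pRNAi eggs between 0.902 and 1.242.

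**Figure D3:**
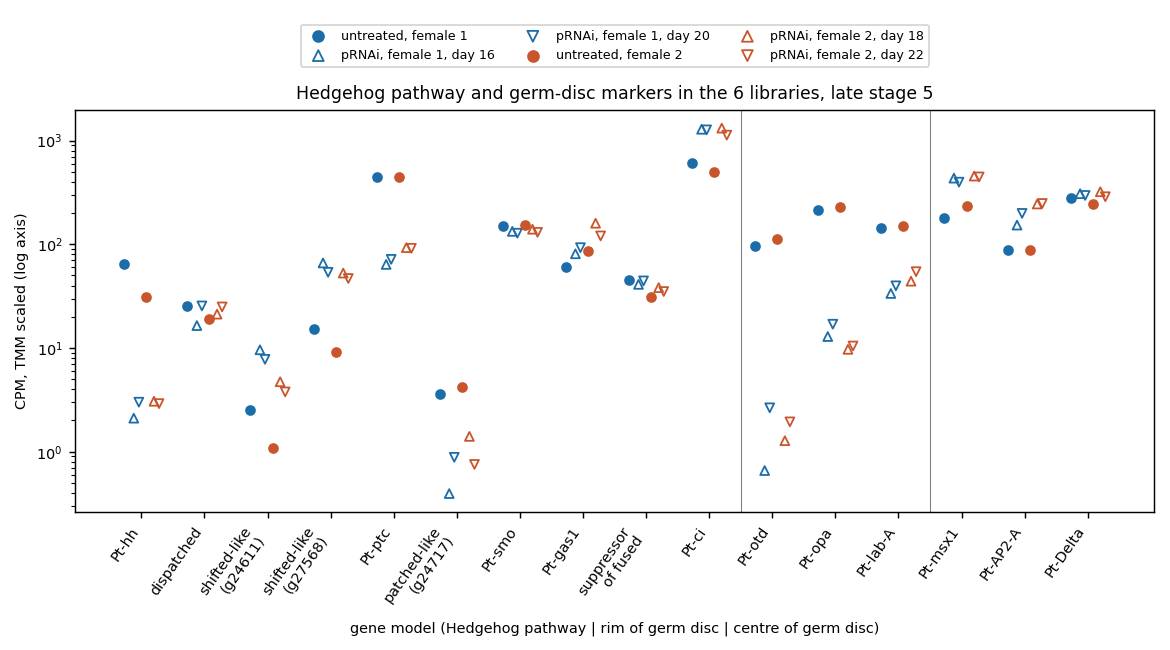
CPM (log axis) of the 10 Hedgehog pathway models, 3 further markers of the rim and 3 of the centre of the germ disc in each of the 6 libraries, with filled circles for untreated and open triangles for pRNAi eggs, coloured by female. The pRNAi points lie below the untreated ones for Pt-hh, Pt-ptc and the second patched-like model and above them for Pt-ci and both shifted-like models.

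Markers of the regions of the germ disc moved apart. The summed level of 4 markers of the rim (Pt-hh, Pt-otd, Pt-opa and Pt-lab-A) was 515.8 and 524.4 CPM in untreated eggs and between 49.23 and 69.72 CPM in pRNAi eggs, and all 4 fell. Pt-hh is the target of the dsRNA, so its own fall says nothing about the rim. The summed level of 5 markers of the centre (Pt-msx1, Pt-gas1, Pt-AP2-A, Pt-ci and Pt-Delta) was 1219 and 1159 CPM and became 2230 to 2497 CPM, and 3 of the 5 rose. Much of this sum was Pt-ci, with 612 and 502 CPM in untreated and 1128 to 1318 CPM in pRNAi eggs. The study used these genes as markers with this experiment among its data, so their direction is not independent evidence. Pt-Delta, a Notch ligand, did not pass (log2 fold change 0.21, adjusted p 0.398).

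Markers of other cell types were also summed. These were picked by words in the deposited descriptions, and in which cells the models are expressed was not tested. Models listed for the cumulus by description (BMP ligand and ETS factors) summed to 125.7 and 244.3 CPM in untreated and to 76.38 to 84.37 CPM in pRNAi eggs, and 3 of 5 fell. Those 3 were ETS models, which are also in the FGF and Ras list. The BMP2-A-like models did not pass. Of these, the rare aug3.g16401 was higher in every pRNAi library (log2 ratios 0.659 to 1.418). The other, aug3.g15032, had ratios of -0.006 and 0.275 in female 1 and -1.528 and -0.942 in female 2. By staining, the study saw no apparent effect of altered Hedgehog signalling on expression in the cumulus mesenchymal cells. For mesoderm and endoderm the sums were 351.7 to 418.0 against 233.0 to 280.7 CPM, and 2 of 7 models tested fell: a model described as silk gland factor 1-like (aug3.g6985), a forkhead factor, at 146 and 103 against 55.02, 59.5, 55.2 and 49.5 CPM, and a GATA-4 model (aug3.g8337). Of 10 models in this marker list 1 was at 0 in every library. Germ cell markers (relatives of Vasa and Piwi) summed to 3225 to 4047 CPM before and 3984 to 4489 CPM after pRNAi, and none of the 3 passed. For tissues of the mother, 18 models described as hemocyanins, vitellogenins and silk proteins summed to 43.89 and 44.39 CPM in untreated and 37.61 to 66.25 CPM in pRNAi eggs, 5 of them at 0 throughout, and none of the 3 tested passed.

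Homeobox genes contributed the largest number of transcription factors that fell, 10 of 58 models tested (17.2%), with 4 that rose (6.9%). Pt-otd (aug3.g9172, scaffold 996, bases 78536 to 126829), an orthodenticle/OTX gene of the head, was at 95.5 and 112 CPM in untreated eggs and at 0.658, 2.65, 1.28 and 1.94 CPM in pRNAi eggs. The groups were far apart, and the log2 fold change was -6.03 ± 0.23 (adjusted p 1.3e-08). Pt-BarH1, a Bar-class gene, fell from 201 and 195 to 28.4, 25.6, 35.1 and 32.9 CPM (-2.70 ± 0.12 on the log2 scale, adjusted p 6.65e-08). Pt-lab-A, a labial gene of the Hox cluster, fell from 144 and 151 to 33.6, 39.8, 44.1 and 54.4 CPM (-1.80 ± 0.13, adjusted p 1.07e-05).

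A model described as gooseberry (aug3.g11337, scaffold 1298, bases 209766 to 297498) was almost at 0 in the pRNAi eggs. In flies gooseberry is a segment polarity gene with a paired-class homeodomain. The model had 104 counts in the 2 untreated libraries and 1 count in the 4 pRNAi libraries, a ratio of 212 per read (95% interval 37.2 to 8440, for counting error only; adjusted p 1.79e-05). The 6 other homeobox models that fell lay outside the rule for named genes and were picked once their values were known. They were Meis2 (aug3.g13868 and aug3.g13867, log2 fold changes -1.45 and -1.24), Meis1 (aug3.g3111, -0.96), extradenticle-like (aug3.g13538 and aug3.g27748, -1.42 and -1.14) and Hox-C10-like (aug3.g15983, at 0 counts in every pRNAi library). Meis proteins and Extradenticle are partners of Hox proteins on DNA in flies and vertebrates.

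Homeobox genes that rose included Pt-msx1, a muscle segment homeobox gene and marker of the centre. Its levels were 179 and 235 CPM in untreated and 434, 397, 454 and 446 CPM in pRNAi eggs (log2 fold change 1.07 ± 0.13, adjusted p 0.000242). Pt-noto1 went from 142 and 92.3 to 289.6, 233, 169 and 176 CPM (0.89, adjusted p 0.000963), with no overlap although the untreated level of female 1 approached the pRNAi levels of female 2. The other members were rare in untreated eggs. A barH-like 2 model (aug3.g15951) had 5 counts in untreated and 113 in pRNAi libraries, 11.1 times more per read (95% interval 4.62 to 34.8). A CDX-1-like model (aug3.g12643), a relative of the posterior gene caudal, had 4 and 140 counts, 17.2 times more (6.57 to 64). Without female 2, 7 homeobox models rose. With the pRNAi libraries summed by female, 1 rose and 6 fell.

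Zinc finger patterning factors fell in 7 of 29 cases (24.1%) and rose in 2 (6.9%). Pt-opa (aug3.g12202, scaffold 1447, bases 114106 to 154022), an odd-paired/ZIC gene, was at 212 and 229.9 CPM in untreated and 12.9, 16.96, 9.71 and 10.5 CPM in pRNAi eggs (-4.18 ± 0.16, adjusted p 1.3e-08). Pt-snail, a gene of the Snail family of mesoderm and cell movement, is split over a pair of neighbouring models that the study assigned to 1 gene. Its coding model aug3.g416 fell from 31.3 and 19.5 to 5.397, 3.53, 5.49 and 4.202 CPM (-2.40 ± 0.22, adjusted p 4.04e-05) and the model of its 3′ end, aug3.g417, from 35.4 and 32.98 to 6.84, 4.42, 4.85 and 5.71 CPM (-2.63). No pRNAi value of either model was above 6.84 CPM, and no untreated value was below 19.5 CPM. A Krueppel-like factor 7 model (aug3.g4601) fell by 1.53 on the log2 scale, from 30.9 and 54.6 to 10.8, 10.4, 17.8 and 20.3 CPM. Models described as zinc finger homeobox protein 4-like (aug3.g25763, -1.40), a further zinc finger protein (aug3.g14296, -1.19) and zinc finger homeobox protein 3-like (aug3.g11268, -0.74) also fell.

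The list also held genes that moved the other way. Pt-AP2-A, an AP-2 factor and marker of the centre, was at 87.3 and 88.99 CPM in untreated and 153, 198, 245 and 247 CPM in pRNAi eggs (1.24 ± 0.15, adjusted p 0.000326). Pt-bcl11 went from 33.6 and 37.7 to 85.4, 84.6, 72.7 and 78.1 CPM (1.16 ± 0.13, adjusted p 0.00017). Its relatives in vertebrates are transcription factors of blood and nerve cells. Without female 2, 4 models of the zinc finger list rose.

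In the forkhead, Sox, T-box and GATA list 7 of 28 models fell (25.0%) and none rose (2 higher at an unadjusted p under 0.05 and 1 by DESeq2), and the median of the list was -0.558. A TBX20-like model (aug3.g11865), of a T-box family known in vertebrate heart, fell from 38.99 and 51.3 to 10.5, 10.1, 15.3 and 11.8 CPM (-1.92 ± 0.15, adjusted p 1.14e-05). A TBX3-like model (aug3.g3746) fell from 9.598 and 6.18 to 2.37, 2.83, 2.43 and 2.802 CPM (-1.56, adjusted p 0.00241). For both models the groups were far apart. Sox models nearly disappeared at low levels: SOX-8 (aug3.g816) had 29 counts in untreated and 1 in pRNAi libraries (ratio 59, interval 9.79 to 2410), and Sox-14-like (aug3.g2665) had 28 and 2 (ratio 28.5, interval 7.19 to 247). The others were Pt-sox2-A (aug3.g11061, -1.68), TBX20 (aug3.g8837, -2.93) and GATA-4 (aug3.g8337, -0.78). Without female 1, or without the day 18 egg sac, 4 models of this list fell, and 1 with only the second pRNAi egg sacs or with the pRNAi libraries summed by female. Among nuclear receptors 1 of 15 fell, a relative of tailless (aug3.g794, 53.2 and 56.9 against 33.4, 35.3, 29.3 and 24.7 CPM, -0.86), and 1 rose (0 by DESeq2). Neither change passed with only the second pRNAi egg sacs or with the pRNAi libraries summed by female. Of 21 bHLH factors 1 rose, the clock repressor cwo (aug3.g15484, 1.01). This rise did not pass without day 18, nor the fall of the tailless relative without female 2, and without female 1 2 bHLH models rose and 2 fell.

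Wnt pathway models fell in 8 of 27 cases (29.6%), with none higher (3 at an unadjusted p under 0.05, 0 by DESeq2, 1 without the low-count filter) and a median of -0.342. Wnts are secreted ligands, Frizzled proteins their receptors, and several of the genes that fell encode inhibitors. Among receptors, Pt-frizzled4 (aug3.g9827, scaffold 1077, bases 221376 to 225625) was at 22.8 and 23.3 CPM in untreated and 3.95, 4.77, 5.49 and 5.93 CPM in pRNAi eggs (-2.19 ± 0.18, adjusted p 1.79e-05). A frizzled-5-like model (aug3.g4009) fell from 92.1 and 72.02 to 30.1, 32.9, 28.6 and 29.5 CPM (-1.43 ± 0.12, adjusted p 2.06e-05). The levels of these receptors did not overlap between groups and were similar in both females. A further frizzled-4 model (aug3.g27554) fell from 70.04 and 94.8 to 41.99, 37.1, 53.5 and 51.2 CPM (-0.84, adjusted p 0.000745).

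Inhibitors of the pathway fell too. Naked cuticle, an intracellular inhibitor that is itself induced by Wingless in flies, was at 77.8 and 146 CPM in untreated and 21.7, 25.8, 22.2 and 31.03 CPM in pRNAi eggs (aug3.g5391, -2.11 ± 0.17, adjusted p 1.79e-05). The remaining members that fell lay outside the rule for named genes: secreted frizzled-related protein 5 (aug3.g4876 and the neighbouring aug3.g4877, -1.08 and -0.87), notum1, an enzyme that strips Wnt of its lipid (aug3.g9270, -1.47), and the ligand Wnt-6, which was rare (aug3.g13046, mean level 0.562 CPM, -3.75). Without female 2, or without its egg sac of day 18 or day 22, 4 to 5 models of this list fell, and 3 with the pRNAi libraries summed by female.

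In the list of FGF, EGF and Ras signalling 8 of 38 models fell (21.1%) and none rose (2 at an unadjusted p under 0.05, 0 by DESeq2). Pt-fgf8 (aug3.g5611, scaffold 671, bases 239636 to 329201), a ligand of FGF receptors, was at 84.4 and 163 CPM in untreated and 5.27, 7.24, 9.32 and 10.1 CPM in pRNAi eggs (-3.94 ± 0.14, adjusted p 1.3e-08). Each female lost most of its own starting level, although these levels differed nearly by a factor of 2. ETS factors, which act downstream of Ras and MAP kinase, made up 4 of the 8. Pt-ets1 (aug3.g7547) fell from 27 and 27.3 to 6.84, 8.66, 10.6 and 8.08 CPM (-1.68 ± 0.17, adjusted p 9.83e-05). The neighbouring C-ets-2-like models aug3.g3964 and aug3.g3965 fell by 1.10 and 1.20 on the log2 scale, and C-ets-1-like (aug3.g19580) from 10.8 and 32.6 to 8.95, 5.65, 10.7 and 9.27 CPM (-1.24), mostly in female 2. Feedback inhibitors were among the rest: a sprouty-related EVH1 protein (aug3.g5499, 49.3 and 81.4 against 31.3, 24.6, 25.4 and 25.5 CPM, -1.28) and dual specificity phosphatase 1 (aug3.g27588, -1.52), which inactivates MAP kinases. Pt-rhomboid (aug3.g13482), named after the fly protease that frees EGF ligands, had a log2 fold change of -0.82 (adjusted p 0.00954). Without female 2, or without its egg sac of day 18 or day 22, 4 to 5 of these models fell, and 2 with the pRNAi libraries summed by female.

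Notch ligands moved in both directions. Of 18 models in the Notch list 3 fell and 1 rose. A delta-like model (aug3.g12734) fell from 116 and 98.7 to 43.2, 41.3, 46.5 and 35.99 CPM (-1.36 ± 0.13, adjusted p 5.21e-05). Neighbouring jagged-1-like models that share an identifier, aug3.g9162 and aug3.g9161, fell by 0.85 and 0.81 on the log2 scale. The best matches deposited for aug3.g9161 are not Notch ligands (Pol protein in flies, Putative p150 in humans), whereas those of aug3.g9162 are Serrate and Jagged-1. The jagged-1b model (aug3.g11708) went the other way, from 6.45 and 4.73 to 22.6, 23.1, 19.8 and 16.4 CPM (1.88 ± 0.19, adjusted p 7.94e-05). Of 32 models of the BMP and TGF-beta list none passed in edgeR or DESeq2 (5 at an unadjusted p under 0.05), and their median was -0.008. In the Toll and JAK/STAT list 2 of 24 rose, toll-like receptor 6 (aug3.g25912, 2.1 and 1.46 against 10.1, 14.3, 8.94 and 6.79 CPM, 2.47) and dorsal (aug3.g5492, 14.9 and 6.79 against 27.1, 22.97, 23.3 and 15.8 CPM, 1.10), a transcription factor of the Toll pathway. Without the egg sac of day 16, 20 or 22, 1 of the list rose, and without day 16 another model fell.

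**Figure D4:**
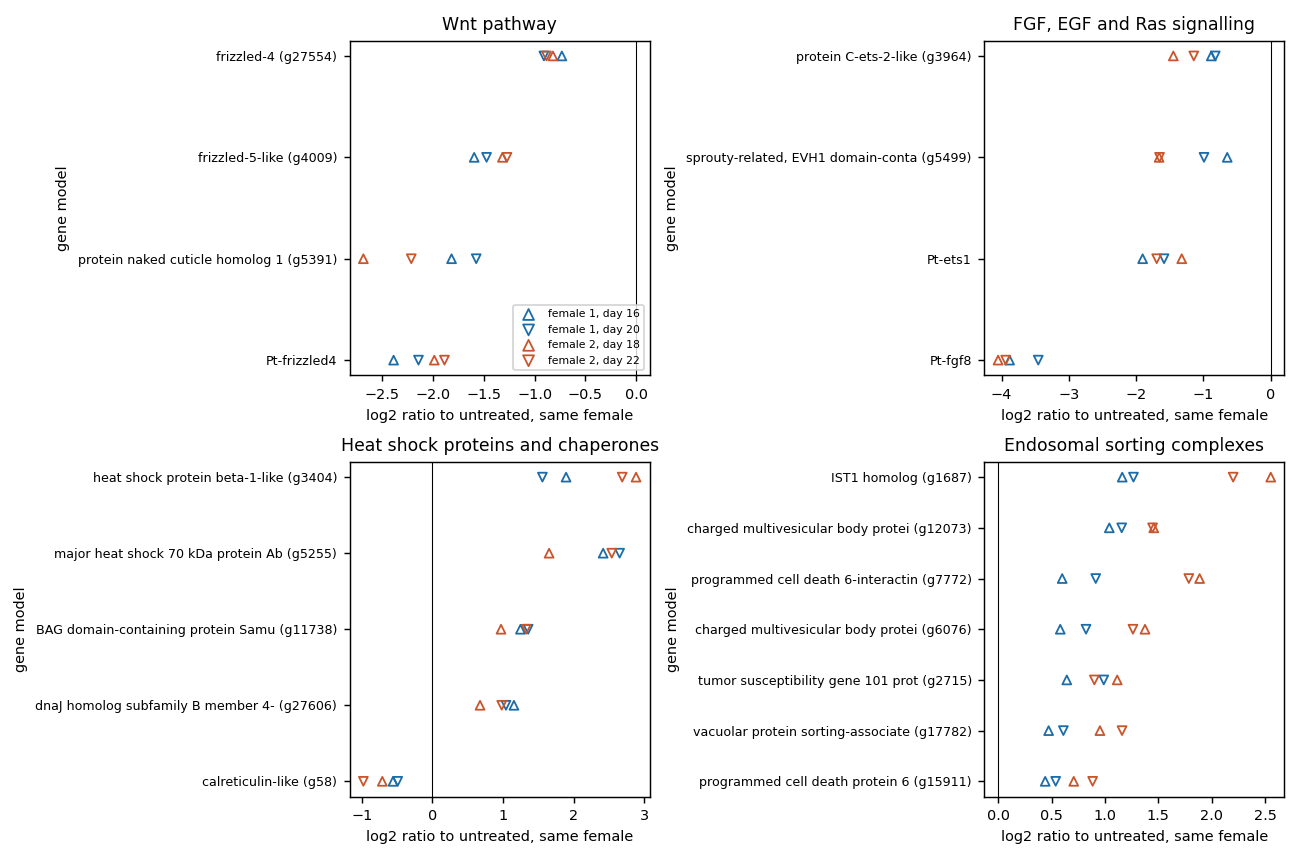
Log2 ratio of each pRNAi library over the untreated library of the same female for the named members of 4 gene lists, with 4 points per gene (days 16 and 20 of female 1, days 18 and 22 of female 2; 0.5 CPM was added to each level). In the Wnt and FGF lists all points lie below 0; in the heat shock list all but those of calreticulin lie above it, and in the endosomal sorting list all do.

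Cell surface and matrix genes changed one by one. Among adhesion receptors 3 of 103 fell and 4 rose. Pt-latrophilin-B (aug3.g9493), an adhesion G protein-coupled receptor, fell from 117 and 127 to 16.7, 19.3, 17.6 and 21.01 CPM (-2.71 ± 0.12, adjusted p 6.65e-08), and an integrin alpha-8-like model (aug3.g7077) from 105 and 124 to 33.6, 33.9, 30.9 and 42.2 CPM (-1.70). The giant cadherin dachsous (aug3.g2859), which acts in planar polarity in flies, fell from 287 and 242 to 167, 209.9, 153 and 122 CPM (-0.71). Teneurin-m (aug3.g11824, 0.98), Dscam-like (aug3.g21455, 0.78), cadherin-23 (aug3.g13442, 0.89) and integrin beta-PS-like (aug3.g14937, 0.93) rose, cadherin-23 with overlapping groups. Leaving out a library changed the number of these that rose to between 1 and 9, highest without female 1, and at 1 without female 2 or without the egg sac of day 18 or day 20.

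Among matrix genes 2 of 75 fell, glypican-6 (aug3.g11833, 66.4 and 69.5 against 29.2, 28.97, 34.5 and 27.9 CPM, -1.17), a surface proteoglycan of a family that binds Hedgehog and Wnt, and laminin alpha-1-like (aug3.g16317, 153 and 151 against 72.4, 85.2, 73.3 and 71.1 CPM, -1.01), a basement membrane chain. The 3 that rose were mucin-12 (aug3.g2518, 1.06) and the collagen models aug3.g16478 (1.32) and aug3.g27696 (2.70), and without the day 20 egg sac none of the list rose, while 6 rose and 6 fell without female 1 and 4 fell without female 2. In the axon guidance list 1 of 31 fell, semaphorin-5A-like (aug3.g6222, 44.99 and 61.8 against 12.4, 15.02, 35.5 and 35.1 CPM, -1.23), more steeply in female 1, and 1 rose, Pt-echinoid, which the annotation describes as roundabout homolog 3 (aug3.g10604, 179.7 and 176 against 336, 428, 328 and 259 CPM, 0.91). The rise did not pass without day 20, and 2 of the list rose without day 16 and 2 fell without female 1.

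Among the described models that fell, the 12 of smallest adjusted p included 9 members of signalling and transcription factor lists, which have been given. Of the others, Pt-latrophilin-B is described with the adhesion receptors. Anoctamin-7 (aug3.g12544), a membrane protein of the anoctamin family, was at 191 and 179 CPM in untreated and 33.3, 44.2, 57.5 and 55.1 CPM in pRNAi eggs (-1.99 ± 0.15, adjusted p 1.18e-05). Dendritic arbor reduction protein 1 (aug3.g15550), a Krüppel-like factor in flies, was at 90.6 and 89.1 against 26.5, 22.4, 23.3 and 26.8 CPM (-1.86 ± 0.12, adjusted p 3.82e-06). Outside these 12, a glutamyl aminopeptidase-like model (aug3.g14027) fell from 16.1 and 7.64 to 1.45, 1.59, 1.53 and 1.72 CPM (-2.81), and a second one (aug3.g12690) had 30 counts in untreated and 7 in pRNAi libraries.

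Among the described models that rose, the 12 of smallest adjusted p were of another kind. Apart from shifted-like and jagged-1b, they encode transporters, enzymes, proteins of membrane traffic and a translation initiation factor. An ABC transporter of the G family (aug3.g25573) went from 2.7 and 3.27 to 20.01, 19.6, 18.01 and 15.95 CPM (2.59 ± 0.22, adjusted p 2.21e-05). Rab-22A-like, a small GTPase of endosomes (aug3.g16547), went from 1.65 and 0.485 to 17.2, 13.6, 5.37 and 6.25 CPM (3.32), and the endosomal protein LITAF (aug3.g15092) from 18 and 14.8 to 43.96, 51.9, 56.2 and 46.6 CPM (1.60). None of these overlapped. Serine protease 27 (aug3.g12644) was the most abundant of the 12, at 193 and 104 against 512, 541, 501 and 421 CPM (1.79 ± 0.17, adjusted p 6.31e-05). A UDP-glucose 4-epimerase-like model (aug3.g25252), of galactose metabolism, rose from 7.499 and 5.699 to 23.4, 27.4, 39.2 and 37.1 CPM (2.26), and a DNA-directed primase/polymerase-like model (aug3.g12971) from 40.6 and 23.6 to 106, 91.2, 68.9 and 61.9 CPM (1.37). Golgin A4-like (aug3.g4762) rose in both females from different starting levels, 38.99 and 13.8 to 147, 111, 40.5 and 36.5 CPM (1.62), so that its groups overlapped. The widest ranges were those of glyoxylate reductase (aug3.g26944, 5.399 and 2.06 against 41.99, 84.1, 76.4 and 131 CPM, 4.49) and of eIF2 subunit 2 (aug3.g3016, 0.900 and 0 against 10.5, 15.2, 21.97 and 33.3 CPM, 5.59). In the gfp females, the untreated libraries alone ranged from 0.376 to 32.1 CPM for glyoxylate reductase.

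Proteins of the endosomal sorting complexes (ESCRT), which bud membrane into endosomes and act in the release of membrane-bound proteins, rose in 7 of 50 cases (14%, median 0.059), with none lower (2 at an unadjusted p under 0.05, 0 by DESeq2). This list was drawn up after these values were seen, so its count is a description only. CHMP5-like (aug3.g12073) was at 56.99 and 46.3 CPM in untreated and 118, 128, 128 and 127 CPM in pRNAi eggs (1.28 ± 0.13, adjusted p 8.65e-05). IST1 (aug3.g1687) was at 42.1 and 19.3 against 94.9, 102, 116 and 90.4 CPM (1.77) and the ALIX-like programmed cell death 6-interacting protein (aug3.g7772) at 123 and 59.3 against 187, 233, 221 and 206 CPM (1.27). Both rose more in female 2, whose untreated levels were lower. The others were CHMP2a (aug3.g6076, 1.02), TSG101 (aug3.g2715, 0.92), VPS37B (aug3.g17782, 0.80) and programmed cell death protein 6 (aug3.g15911, 0.65). The number that rose was 10 without female 1, 4 without female 2, 3 with only the second pRNAi egg sacs and 1 with the pRNAi libraries summed by female.

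Heat shock proteins and chaperones rose in 8 of 101 cases (7.92%), and 1 fell. An Hsp70 (major heat shock 70 kDa protein Ab-like, aug3.g5255) was at 27.6 and 3.03 CPM in untreated and 149.7, 176, 10.6 and 20.04 CPM in pRNAi eggs (2.50 ± 0.24, adjusted p 5.74e-05). The groups overlapped because all levels of female 2 were below the untreated level of female 1. Samui-like, a BAG-domain cochaperone (aug3.g11738), was at 66.1 and 31.3 against 158, 170.1, 61.8 and 79.3 CPM (1.24), and a dnaJ B4-like model (aug3.g27606) at 108 and 72.4 against 241, 223, 116 and 143 CPM (0.97). A small heat shock protein (heat shock protein beta-1-like, aug3.g3404) had 6 counts in untreated and 129 in pRNAi libraries (10.6 times more per read, interval 4.72 to 29.3). Calreticulin-like (aug3.g58), a chaperone of the endoplasmic reticulum, fell from 169 and 138 to 115, 120.3, 84.3 and 69.9 CPM (-0.69).

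Of this list 2 models rose and 1 fell in the gfp females. There Hsp70 Ab-like rose by 1.70 (adjusted p 0.00414) and Samui-like by 1.22 (adjusted p 0.00258), and calreticulin-like had a log2 fold change of -0.83 (adjusted p 0.00725). For the 9 heat shock models that passed in the Pt-hh females, the difference from the gfp females did not pass (adjusted p from 0.0586 to 0.98, 4 at an unadjusted p under 0.05). Without the egg sac of day 20 or that of day 22, 5 models of the list rose, and with the pRNAi libraries summed by female 2. The fall of calreticulin-like did not pass without day 20, without day 22 or without female 2.

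Transport and metabolism genes passed at rates near the background. Of 268 solute carriers and ABC transporters 7 rose (2.61%) and 3 fell (1.12%). GLUT1 (aug3.g25893, 9.45 and 14.6 against 31.3, 42.1, 32.8 and 33.1 CPM, 1.52), SLC25A46-like of the mitochondrial outer membrane (aug3.g2435, 34.2 and 25.2 against 75.7, 100.2, 84.3 and 153 CPM, 1.79) and the cationic amino acid transporter 3 (aug3.g10218, 36.9 and 12.3 against 81.1, 100.3, 64.6 and 107 CPM, 1.95) rose. In the gfp females, untreated libraries ranged from 14.4 to 96.7 CPM for SLC25A46-like and from 7.04 to 87.1 CPM for the amino acid transporter. Zinc transporter 1 (aug3.g6040, -1.10), SLC18B1 (aug3.g7581, -1.14) and the carcinine transporter (aug3.g23620, -1.11) fell. Without female 1 23 of these rose and 6 fell, and without female 2 11 rose.

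Among 194 yolk and lipid models 7 rose (3.61%) and 2 fell (1.03%). SREBP1 (aug3.g27349), which drives transcription of lipid synthesis genes, was at 44.1 and 28.4 against 68.97, 92.9, 94.1 and 98.2 CPM (1.30). Carnitine palmitoyltransferase 1, which takes fatty acids into mitochondria, rose in both of its neighbouring models (aug3.g4502 and aug3.g4501, 0.97 and 0.69). A fatty acyl-CoA reductase (aug3.g21224, 3.15 and 0 against 11.98, 18.6, 0.639 and 0.323 CPM) was counted almost wholly in female 1. The VLDL receptor (aug3.g18146, -0.99) and phospholipase A2 XV (aug3.g15560, -0.58) fell. With a female or an egg sac left out, 3 to 12 of the list rose, the most without female 1 and the fewest without the egg sac of day 20 or of day 18, and 4 rose without female 2, without day 16 or without day 22. None passed with the pRNAi libraries summed by female.

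Of 100 detoxification enzymes 3 rose and 1 fell, with 7 higher and 3 lower when female 1 was left out. Cytochrome P450 2J6-like (aug3.g10417) was at 5.999 and 2.43 against 19.7, 24.6, 11.6 and 12.8 CPM (2.06) and P450 3A8 (aug3.g14808) at 6.75 and 3.64 against 29.4, 20.5, 35.9 and 34.6 CPM (2.55), both without overlap. A cytosolic sulfotransferase (sulfotransferase 1B1-like, aug3.g26822) had 2 counts in untreated and 91 in pRNAi libraries (22.3 times more per read, interval 6.01 to 187), while an estrogen sulfotransferase model (aug3.g18899, -2.38) fell, a fall that did not pass without female 2 or without day 20, 18 or 22.

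Genes of cell structure followed. In the cytoskeleton list 6 of 257 rose (2.33%) and none fell (20 at an unadjusted p under 0.05 and 2 by DESeq2), with 13 higher without female 1 and 3 without the egg sac of day 20 or of day 22. The motor proteins KIF19 (aug3.g3504, 1.35 and 0.606 against 6.84, 12.4, 7.92 and 6.03 CPM, 3.08) and kinesin heavy chain-like (aug3.g11794, 3.75 and 1.82 against 18.03, 13.1, 5.62 and 5.06 CPM, 1.85) and the actin crosslinker filamin-A (aug3.g26574, 64.5 and 28.98 against 113, 147, 163 and 154 CPM, 1.67) were among them. Both muscle models that rose were neighbouring pieces of titin (aug3.g9684 and aug3.g9683, 3.02 and 2.43), of 23 tested.

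Chitin and cuticle genes were mostly absent, and 2 of the 11 tested rose (1 by DESeq2). None rose without female 2 (7 of the list were higher at an unadjusted p under 0.05 with all libraries), with only the second pRNAi egg sacs or with the libraries summed by female. Obstructor-E (aug3.g25809), a chitin-binding protein, had 3 counts in untreated and 103 in pRNAi libraries (16.9 times more per read, interval 5.61 to 83.1), nearly all in female 2, and obstructor-E-like (aug3.g13685) was at 2.25 and 2.06 against 3.95, 6.01, 28.5 and 20.3 CPM (2.65). Of 121 ion channel and synaptic models 5 rose and 1 fell, the potassium channel Kv subfamily B member 2 (aug3.g27237, -0.82). The gap junction genes innexin inx2-like (aug3.g10442, 159.7 and 116 against 307, 337, 246 and 357 CPM, 1.19, and aug3.g10444, 1020.0 and 802 against 1456, 1528, 1533 and 1690.0 CPM, 0.77) rose in both females. A GABA-B receptor subunit (aug3.g2442, 0 and 3.64 against 0, 0.530, 32.96 and 32.97 CPM) and NMDA receptor 2B (aug3.g1550, 0 and 1.94 against 0, 0.707, 13.5 and 12.9 CPM) were near 0 in female 1, so their calls rest on female 2. Without female 2 1 channel model rose, with 3 without the egg sac of day 20 or of day 18, and 2 without that of day 22, and the fall of Kv subfamily B member 2 did not pass without female 2, day 20 or day 22.

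General functions of the cell changed little. Of 180 cell cycle and DNA replication models 2 fell and none rose (8 at an unadjusted p under 0.05 and 1 by DESeq2). Those that fell were inner centromere protein A-like (aug3.g5177, 28.8 and 45.5 against 6.32, 7.42, 11.2 and 21.6 CPM, -1.73) and cyclin-D2 (aug3.g11246, 30.3 and 38.9 against 13.6, 13.6, 17.1 and 24.1 CPM, -1.02), and without female 1 4 of the list fell and 2 rose. Among 151 histone and chromatin models 3 fell, the methylcytosine dioxygenase TET1 (aug3.g981, -1.05), bromodomain protein 4 (aug3.g27504, -1.73) and a histone H1 (aug3.g11669, -1.18), and between 1 and 6 fell when a library was left out, 1 without female 2, 6 without female 1 and 5 without the egg sac of day 16. None of 82 cytosolic ribosomal proteins (median 0.085), 26 small RNA and germline factors, 19 protease inhibitors, 16 immunity proteins or 11 transposable element models passed in edgeR or DESeq2, where 7, 1, 5, 7 and 1 of them had an unadjusted p under 0.05 in edgeR. Of 67 respiratory chain models 1 rose (aug3.g26581, 1.11), and of 57 glycolysis and sugar models 1 fell, phosphoglucomutase-2-like (aug3.g18389, -0.67). The first did not pass without female 2, day 20 or day 22, and the second not without day 20, while 3 of the glycolysis list fell without female 2. Among 46 cell death genes 2 rose, both also in the endosomal sorting list, and bcl-2-like 1 (aug3.g6694, -0.81) fell. That fall did not pass in DESeq2 or with any female or egg sac left out, and 1 of the 2 rises passed without female 2 or without day 20, 18 or 22. Of 93 proteases 3 rose and 3 fell. Besides serine protease 27 these were dipeptidyl peptidase 2-like (aug3.g9517, 1.72) and carboxypeptidase D-like (aug3.g19121, 0.93), which rose, and both aminopeptidase models and a disintegrin-like metalloproteinase (aug3.g15798, -0.62), which fell. Without the egg sac of day 16, 20 or 18, 1 protease fell.

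The same comparison was made in 9 libraries of the first 3 gfp females and in 9 libraries of the 3 Pt-ptc females at late stage 5, which share no female with the Pt-hh experiment. In the gfp females 17 of 12433 models passed (0.137%), 6 higher (0.0483%) and 11 lower (0.0885%). Without female 3 of that experiment 10 passed, and without its female 2 none in edgeR, with 1559 at an unadjusted p under 0.05. DESeq2 on all 9 libraries called 76. Of the 148 models that fell in Pt-hh pRNAi eggs, none rose and 2 fell in the gfp females, where their median was 0.022. The 287 that rose had a median of -0.214 there over the 274 tested, 2 higher and 5 lower. The difference between the Pt-hh and gfp responses itself passed for 322 of 12877 models (2.5%, 1.68% higher and 0.823% lower), and for 84 of the 148 and 177 of the 287, always in the direction of the Pt-hh response. The 148 and 287 were chosen from the same Pt-hh libraries that enter this difference. Their direction was therefore largely set by the choice and is no independent support.

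In the libraries labelled Pt-ptc pRNAi, Pt-ptc itself did not pass (log2 fold change 0.21, adjusted p 0.301), and the study also did not call it at this stage. The study proposes that the knockdown raises Hedgehog signalling and with it transcription of Pt-ptc. It cites earlier work in which Pt-ptc transcripts were harder to detect in the cytoplasm. At this stage the level of the targeted gene is thus no check of the label. At early stage 3 it was at 82.2, 108 and 177 CPM in untreated eggs of these 3 females (here scaled to total counts), and in pRNAi eggs at 48.5 and 50.3 (female 1), 83.7 and 88.7 (female 2) and 58.7 and 65.4 CPM (female 3), lower in every pRNAi egg sac than in the untreated eggs of its female. There 123 of 12195 models passed (1.01%), 36 higher (0.295%) and 87 lower (0.713%), with 77 without female 2 and 54 without female 3 of that experiment. In both experiments 40 models passed (9.2% of the 435 and 32.5% of the 123), 23 in opposite and 17 in the same direction. The opposite ones included Pt-opa (1.12 in Pt-ptc against -4.18 in Pt-hh pRNAi), Pt-lab-A (1.21 against -1.80), Pt-BarH1 (1.01 against -2.70), Pt-fgf8 (0.64 against -3.94) and gooseberry (1.19 in Pt-ptc). In the other direction, shifted-like aug3.g27568 (-3.73 against 2.19), Pt-bcl11 (-6.09 against 1.16), Pt-msx1 (-5.95 against 1.07), Pt-AP2-A (-2.87 against 1.24), Pt-ci (-1.08 against 1.17), Pt-noto1 (-1.16 against 0.89) and serine protease 27 (-1.32 against 1.79) fell with Pt-ptc and rose with Pt-hh pRNAi.

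Some genes did not follow this opposition. Pt-frizzled4 fell in both experiments (-0.94, adjusted p 0.0076, in Pt-ptc pRNAi eggs), and so did laminin alpha-1-like (-1.02). Pt-gas1 did differ in direction, although its change in the Pt-hh eggs did not pass in the main test. The likelihood ratio test and DESeq2 each called 4 models of the Hedgehog list higher, against 3 in the main test. The study, which took a call in any of its egg sac comparisons, counted Pt-gas1 among the genes up with Pt-hh pRNAi. The log2 fold change of Pt-gas1 was -4.06 in the Pt-ptc eggs. In the Pt-hh females every pRNAi library was above the untreated one of its female (log2 ratios 0.415 to 0.89). Among the 148 models that fell, 11 rose and 13 fell in the Pt-ptc females, and of the 287 that rose, 4 rose and 12 fell of the 257 tested there. The difference between both responses passed for 329 of 12879 models (2.55%, 1.75% higher and 0.808% lower), 76 of the 148 and 156 of the 287 in the direction of the Pt-hh response and 1 of the 148 in the opposite one. Here too the models were chosen from Pt-hh libraries that enter the difference, so their direction was largely set by the choice. Without Pt-hh female 2 the difference from gfp passed for 93 models and that from Pt-ptc for 124.

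**Figure D5:**
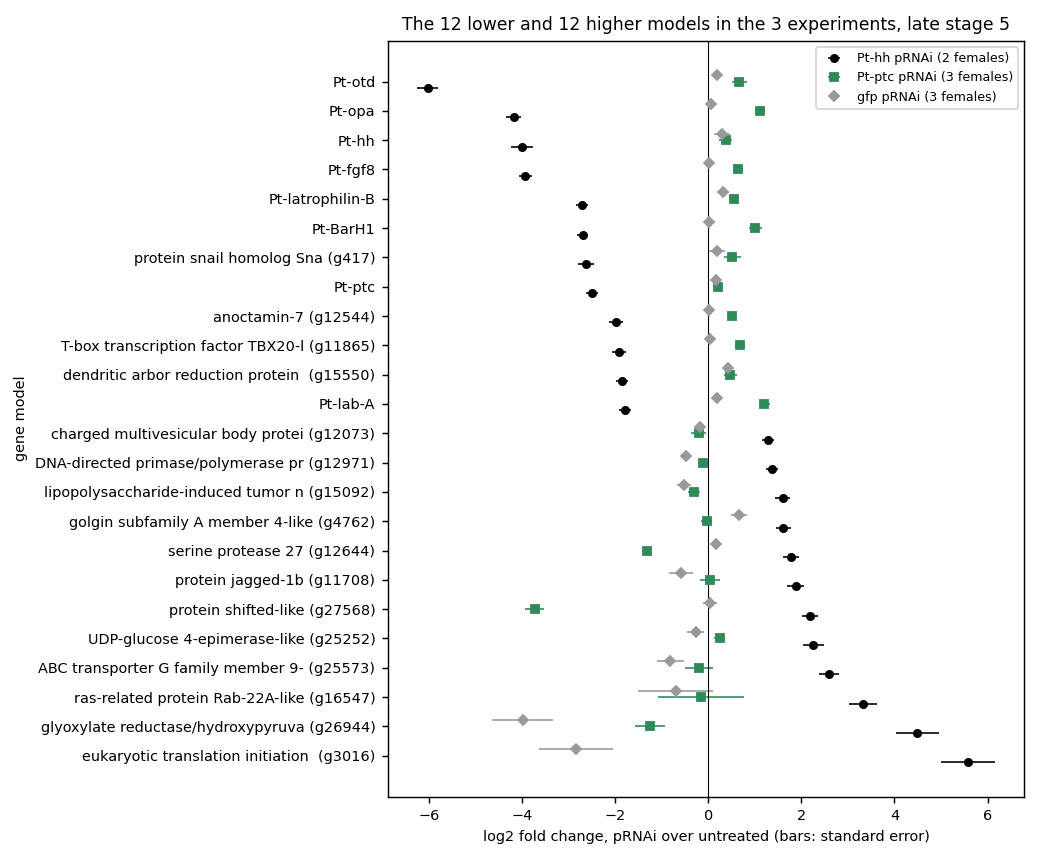
Log2 fold changes of pRNAi over untreated eggs (x axis, bars of 1 SE) in the Pt-hh, Pt-ptc and gfp females at late stage 5, for the 12 described models with the smallest adjusted p in each direction. The gfp points of the models that fell lie near 0, Pt-opa, Pt-lab-A and Pt-BarH1 lie above 0 in the Pt-ptc females, and shifted-like and serine protease 27 lie below it there. Models called in the gfp females were left out by the rule of choice, so small gfp values are partly built in.

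The same 2 females also gave 6 libraries at early stage 3, when the germ disc is forming. The effect of pRNAi differed between stages for 193 of 14105 models (1.37%), 147 with a more positive (1.04%) and 46 with a more negative (0.326%) change at late stage 5, and this number was 540 without female 1 and 33 without female 2. It passed for 36 of the 148 models that fell and 113 of the 287 that rose. At early stage 3 Pt-hh itself was at 10.91 and 21.79 CPM in untreated and between 1.351 and 6.149 CPM in pRNAi eggs. Pt-ptc ranged from 117 to 193 CPM in untreated and from 105 to 147 CPM in pRNAi eggs, and Pt-fgf8 from 11.8 to 12.4 and from 6.91 to 15.2 CPM. For Pt-fgf8, Pt-opa, Pt-otd and Pt-BarH1 the change at late stage 5 was more negative by 3.62, 3.93, 4.58 and 2.77 on the log2 scale, and for ABCG9-like and KIF19 it was more positive by 3.91 and 3.70.

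Normal development, taken from untreated eggs of females outside this experiment, gave the last grouping. Between early stage 3 and late stage 5, 8991 of 14452 models changed (62.2%), 4363 upward (30.2%) and 4628 downward (32%). Of the models that normally increase, 4265 were tested here, and 95 rose and 95 fell in Pt-hh pRNAi eggs (2.23% each, median -0.021). Of those that normally decrease, 3255 were tested, and 77 rose and 13 fell (2.37% and 0.399%, median 0.025). The 95 that fell among genes that come up before late stage 5 included Pt-otd (stage change 4.02 on the log2 scale), Pt-fgf8 (2.39) and Pt-snail (3.54). From late stage 5 to early stage 6, 286 of 12689 models changed (2.25%), and 102 to 580 when a female was left out, the fewest without gfp female 4 and the most without Pt-msx1 female 1, with 170 without gfp female 5 and 142 and 110 without Pt-msx1 females 2 and 3. Of the 167 tested here that normally increase then, 19 rose and 12 fell (11.4% and 7.19%), and of the 100 that normally decrease, 8 rose and 9 fell (8.0% and 9.0%). For all these groups the shares to compare are those over all models tested, 2.34% that rose and 1.21% that fell.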

How the data were processed

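Reads were trimmed by the authors in CLC Genomics Workbench 7.0.4, mapped with BLAT v.34 to the assembly Ptep_1.0 and filtered for unique hits with filterPSL.pl of AUGUSTUS 3.0.1. The authors deposited counts per aug3 gene model from htseq-count 0.5.4p5, which used the strand. The submitters' processing notes also name edgeR. The deposited RPKM values were used only for Pt-hh per length, and E-values of best matches (another value, deposited with the annotation) were only read to find descriptions. The authors' tables of log2 fold changes and FDR values were not used.

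The count table holds 27990 gene models, of which 18859 have an identifier and 18756 a description, and 68 libraries. The 2 lines that name no gene were left out. Counts of the 6 Pt-hh libraries were tested in R 4.3.3 with edgeR 4.0.16 (glmQLFit and glmQLFTest, TMM factors 0.915 to 1.1), with the female as a block as in the study's design, on models that reached 1 CPM in 1 library or more, at a Benjamini-Hochberg adjusted p under 0.01. The untreated and pRNAi egg sacs share a female by design, and their deviations correlated across models (r = 0.688, 2 females). The other comparisons used the same test on their own libraries, and differences between experiments and stages were interaction terms. Normal development was tested in untreated eggs of the other females. The standard error is the size of the log2 fold change over the root of F. Ratios of counts are given per read with exact 95% intervals where every library of a group had at most 3 counts, and cover counting error only. The scripts were tested on simulated data. Depth was similar in the 6 libraries and limits mainly genes under 1 CPM.

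The members, gene lists and rules were chosen with earlier results of these data known. The text names the models of the Hedgehog list, up to 4 called models of each other list in each direction (smallest adjusted p, same direction in both females), and the 12 described models of smallest adjusted p in each direction that were not called in the gfp females. Others are named as chosen after their values were seen: the further members of lists that passed, and those in the closing section. The lists of endosomal sorting proteins and tRNA ligases were drawn up after the values were seen. Alternatives were another test (likelihood ratio, or DESeq2 1.42.0), scaling, filter, threshold, no block, single egg sacs, and each female or egg sac left out.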

Additional observations from a re-analysis of the deposited data

Results flagged for a closer look

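Within the 4 pRNAi libraries of Pt-hh females, 11 of 154 named genes had a library that stood apart from the other 3, by a gap above the 95% value of Dixon's test. Chance alone flags about 1 in 20 such groups, which would be 7.7 of the 154. The egg sac of day 16 of female 1 stood apart for Pt-hh (2.11 CPM), the sprouty-related EVH1 protein aug3.g5499 (31.3 CPM), gooseberry (0.132 CPM, a single count) and CHMP5-like (118 CPM). That of day 20 of the same female did so for SOX-8, estrogen sulfotransferase and the model aug3.g12203 (0.177 CPM each, a single count), laminin alpha-1-like (85.2 CPM), GLUT1 (42 CPM) and BMP2-A-like (aug3.g16401, 1.24 CPM). The egg sac of day 22 of female 2 stood apart for a glutathione-specific gamma-glutamylcyclotransferase 1 (CHAC1) model, at 375 CPM.

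Late stage 5 and early stage 3 differed in their response to the Pt-hh pRNAi for 193 models in a test of the difference itself. Values are the log2 response at late stage 5 minus that at early stage 3. Among genes of the Hedgehog pathway it was -1.96 for Pt-hh, 1.22 for Pt-ci, -2.24 for Pt-ptc, and 2.88 and 2.73 for the shifted-like models aug3.g24611 and aug3.g27568. Among transcription factors it was -4.58 for Pt-otd, -3.93 for Pt-opa, -2.77 for Pt-BarH1, -1.35 for Pt-lab-A, -6.62 for gooseberry, -1.24 for C-ets-2-like (aug3.g3964), -1.20 for dendritic arbor reduction protein 1 and 2.74 for Pt-bcl11. Signalling genes gave -3.62 (Pt-fgf8), -2.10 (naked cuticle), -1.48 (delta-like), 2.78 (jagged-1b) and 3.54 (toll-like receptor 6). At the cell surface the values were -2.03 for Pt-latrophilin-B, 1.32 for teneurin-m, 1.34 and 1.36 for the innexins aug3.g10442 and aug3.g10444.

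Transporters and enzymes had mostly positive differences, with 3.91 for ABCG9-like, 1.98 for GLUT1, 1.75 for SLC25A46-like, 2.02 for cationic amino acid transporter 3, 3.32 for the fatty acyl-CoA reductase aug3.g21224, 3.05 for P450 2J6-like, 5.33 for P450 3A8, 5.86 for sulfotransferase 1B1-like, 2.34 for UDP-glucose 4-epimerase-like, 1.41 for primase/polymerase-like and 1.89 for serine protease 27, against -2.59 for glutamyl aminopeptidase-like (aug3.g14027) and -0.90 for TET1. Genes of structure and membrane traffic gave 2.31 (titin, aug3.g9683), 3.70 (KIF19), 1.67 (golgin A4-like), 1.46 (ALIX-like), 1.34 (CHMP5-like), 1.55 (IST1) and -1.83 (inner centromere protein A-like). The remaining values were 1.20 for Samui-like, 7.55 for eIF2 subunit 2, 1.58 for asparagine-tRNA ligase, 4.35 for the uncharacterized model aug3.g13903 and -6.47 for aug3.g12203, 1.97 for AP-1, 1.61 for tribbles 2-like, 2.58 for CHAC1, 2.46 for DDIT4-like, 1.63 for CD63-like and 3.23 for l(2)efl-like.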

How the results depend on the processing

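The 435 models called in the Pt-hh eggs became 783 with the likelihood ratio test, 881 without the low-count filter, 800 at an adjusted p under 0.05, 172 with only the second pRNAi egg sacs, 121 with both pRNAi libraries of each female summed, 383 to 755 with a female left out and 290 to 460 with an egg sac left out. DESeq2 called 482, of which 403 were among the 435, and RLE size factors, filterByExpr, the first egg sacs alone and the other alternatives gave 403 to 504. Without the replicate block 39 passed, 11 higher and 28 lower, so that 28.2% of calls were higher, against 66% with it. The 17 calls in gfp eggs became 131 (likelihood ratio), 76 (DESeq2), 253 (no filter), 94 (0.05), 37 with gfp females 4 and 5 added, and 0 without the replicate block in edgeR (660 at an unadjusted p under 0.05), and 0 to 25 with a female left out. The 123 in Pt-ptc eggs became 291, 244, 443 and 260 in the same order of the first 4 settings, 39 without the replicate block, and 54 to 103 with a female left out. The difference from gfp (322) became 541 (likelihood ratio), 664 (no filter), 637 (0.05) and 65 without the replicate block, and 93 to 318 with a female left out. The difference from Pt-ptc (329) became 520, 641, 578 and 114 likewise, and 124 to 289. The difference between stages (193) became 427, 325 (DESeq2), 482, 519 and 2 (no replicate block), and 33 to 540. From late stage 5 to early stage 6 the 286 became 692, 445 (DESeq2), 809, 732 and 2 (no replicate block), and 102 to 580. From early stage 3 to late stage 5 the 8991 stayed between 8125 and 10458. Of 136 named genes that were called none reversed, 28 kept their call under every alternative, and 34 lost it without the block only. Those that reversed had not passed: Dispatched (-0.308 to 0.277 with a female left out, 0.191 with the second egg sacs, 0.156 without day 16) and, with a female left out, suppressor of fused (-0.072 to 0.247), BMP2-A-like (aug3.g15032, -1.5 to 0.152) and twist-related 2-like (aug3.g14287, -1.393 to 0.154). The causes were not tested. With 2 females the female cannot be separated from its egg sacs' handling, and models with few counts have wide intervals. With a Pt-hh female left out, a lone untreated library is assumed to vary like the pRNAi libraries.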

Other observations

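The genes in these paragraphs were chosen after their values were seen. Among aminoacyl-tRNA ligases, which load amino acids onto tRNAs, 4 of 48 models rose (8.33%, median 0.252) in Pt-hh pRNAi eggs at late stage 5, where 2.34% of all models rose, and none fell (0 at an unadjusted p under 0.05 and 0 by DESeq2). They were the ligases of asparagine (aug3.g11286, 1.57 on the log2 scale), cysteine (aug3.g14390 and aug3.g20871, 1.35 and 1.01) and phenylalanine (alpha subunit, aug3.g4734, 0.92). The number was 12 without female 1 and 2 without female 2, without day 20 or without day 22. The difference from the gfp response passed for 2 of the 4 and that from Pt-ptc for 3.

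Other genes that rose are known from responses to stress or to shortage of amino acids in vertebrates. A tribbles 2-like model (aug3.g7668) was at 137.7 and 111.2 CPM in untreated and 313, 402, 411 and 539 CPM in pRNAi eggs (1.72 on the log2 scale). CHAC1 (aug3.g1025), which breaks down glutathione, was at 51.4 and 35.9 against 219, 189, 217 and 375 CPM (2.49), and a DDIT4-like model (aug3.g3010) at 99.7 and 82.6 against 205, 234, 265 and 400 CPM (1.56). None of the 3 had overlapping groups. In untreated eggs of the gfp females CHAC1 ranged from 18.2 to 471.7 CPM and DDIT4-like from 32.5 to 193.6 CPM, so that single untreated egg sacs of other females reached the levels of the Pt-hh pRNAi eggs for CHAC1. L-asparaginase-like (aug3.g7792) rose by 1.57 and the transcription factor AP-1 (aug3.g2505), at 202.6 and 74.7 against 641.1, 543.6, 555.5 and 471.3 CPM, by 2.11. AP-1 fell by 1.02 in the gfp females (adjusted p 0.000658), and CD63-like (aug3.g4006), a membrane protein of endosomes, which rose by 1.34 in the Pt-hh eggs, fell by 0.71 there (adjusted p 0.00376). A small heat shock protein described as lethal(2)essential for life-like (aug3.g1733) was at 57.9 and 31.4 against 339.9, 422.2, 305.2 and 681.8 CPM (3.30), with 22.7 to 418.7 CPM in untreated gfp eggs. The part that the condition of single egg sacs has in these values was not tested.

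A pair of models has no known function. The uncharacterized aug3.g13903 was at 2.7 and 4.001 CPM in untreated and 26.2, 42.2, 89.4 and 61.5 CPM in pRNAi eggs (4.01 on the log2 scale, adjusted p 9.62e-06 in edgeR). The model aug3.g12203 (scaffold 1447, bases 154028 to 157014), which lies on the other strand directly after Pt-opa, had 91 counts in untreated and 1 in pRNAi libraries (ratio 185 per read, 95% interval 32.4 to 7400). Of the 435 called models, 32 (7.36%) lay next to a model called in the same direction, 14 of them with the same identifier.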
